A study of Mus musculus with 4 samples.

Results

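The genes described here encode the enzymes that attach ubiquitin to proteins, guide it or take it off: the ubiquitin-conjugating enzymes, the ubiquitin ligases with their cullin, F-box and BTB-Kelch subunits, and the deubiquitinases. They were taken from the deposited table of m6A regions by gene symbol alone (Ube, Herc, Hectd, Nedd4, Rnf, Trim, Ubr, Cul, Fbxl, Fbxo, Fbxw, Klhl, Kbtbd, Usp and Otud), with each region counted once per gene. This gave 124 regions in 94 genes, of 6697 distinct regions and 3882 genes in the table. The cells were Gsk-3 DKO mouse embryonic stem cells, which lack both Gsk-3 kinases, and wildtype (WT) cells. Both carry the strain label E14K, were feeder-free and had spent 14 days without the self-renewal cytokine LIF before RNA was taken. Each genotype had 1 library of mRNA pulled down with an m6A antibody and 1 input library of total mRNA. The labels give neither the alleles of the kinases nor a clone, and no replicate culture, so every value below compares 1 DKO library with 1 WT library and no test between the genotypes was possible. The table holds counts for the genotypes and 0 input columns, so a lower m6A count and a lower amount of the mRNA itself cannot be told apart, nor can fewer cells of a type and less RNA per cell. The file headers give the genotype alone, and sample titles were used to assign the counts to the m6A samples.

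Ubiquitin passes from an activating enzyme to a conjugating enzyme (E2) and from there, through a ligase (E3), to the protein to be marked. HECT ligases take ubiquitin onto themselves first, RING ligases bring the E2 and the target together, and cullins are scaffolds that hold a RING subunit at one end and an exchangeable adaptor, such as an F-box or BTB-Kelch protein, at the other. Deubiquitinases remove the mark. The system bears on Gsk-3 directly, since this kinase phosphorylates proteins such as Myc and beta-catenin so that F-box ligases can recognise them. m6A is a methyl group on adenosine within mRNA, usually placed in long internal exons and around stop codons, within short motifs of the GGACT kind.

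Sequence was at hand where a region ran into the RefSeq promoter window of its gene, 250 bases before to 50 bases after an annotated start, in build GRCm38.p6, and 4 of the 124 regions did so. They are shown because they are the members whose m6A region overlaps that window, and capitals mark the motif searched on both strands, GGAC followed by any base other than G, where it lies on the strand of the gene.
Fbxl15 (chr19:46328062-46328183, plus strand): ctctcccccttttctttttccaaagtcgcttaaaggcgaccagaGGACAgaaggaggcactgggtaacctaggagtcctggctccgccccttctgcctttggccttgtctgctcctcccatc
Fbxw7 (chr3:84815327-84815360, plus strand): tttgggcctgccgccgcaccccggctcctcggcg
Rnf26 (chr9:44113259-44113301, minus strand): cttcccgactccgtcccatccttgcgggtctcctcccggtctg
Rnf6 (chr5:146221408-146221428, minus strand): ggcagggtcgctgcagacggt
The stretch of Fbxl15, an F-box protein, covers the 122 bases before the start and holds 1 match, and the reverse strand holds 1 more. Its region had 0 DKO reads against 42 WT reads. The same 122 positions hold a match on the gene's strand in 30.4% of all 32851 promoter windows, and on the other strand in 31.3%. The stretches of Fbxw7 (29 DKO reads against 203 WT reads), Rnf26 (2 against 30) and Rnf6 (0 against 21) hold no match on either strand, where 9.46%, 11.9% and 6.24% of windows have one on the gene's strand and 9.23%, 12% and 6.01% on the other. For Fbxw7, Rnf26 and Rnf6 the stretch is the part of the region that the window covers, and not the whole region. That of Fbxl15 was cut at the annotated start. Its region runs on to 46328247, and the bases past the start, which include all those within the transcript, were neither printed nor searched. No match says only that those letters are not in that stretch.

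Every member region had fewer DKO than WT reads, which is also true of every region in the table, because no listed region has a DKO count at or above its WT count. Direction is therefore a property of the list, and the members can only be described by how far and how evenly they were lower. Size is bounded by the list as well. No listed region has fewer than 15 WT reads, and the smallest ratio of a region with DKO reads is 2.91-fold. Over the 124 regions, 360 DKO reads stood against 7365 WT reads, with a median of 1 DKO read against 41 WT reads. The median log2 of DKO over WT was -4.77 (quartiles -5.57 and -3.34), against -4.93 over all regions, after adding 0.5 to each count and applying the constant of the authors between the libraries. With regions without DKO reads placed at a floor of 3 counts per library, the median was 11.1-fold lower in the DKO for the members and 10.4-fold for all regions.

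No DKO reads were found in 53 member regions (42.7%), against 50.5% of all regions, and 71 (57.3%) were at least 10-fold lower in the DKO, against 52.5% of all regions. With the region of highest mean count taken for each gene, 37 of 94 member genes (39.4%) had no DKO reads, against 46.2% of all genes, and 56 (59.6%) were at least 10-fold lower, against 55.6%. These shares lie near those of the whole table. A region without DKO reads needs 37 WT reads to reach 10-fold at that floor, and 32 of the 53 had fewer, so that their bound says only that the DKO count was small. A region with 1 DKO read reaches 10-fold at fewer WT reads than that. Between 1 and 3 DKO reads were found in 43 of the 124 member regions, against 1667 of all 6697. The share at 10-fold therefore depends in part on how many regions have 0 DKO reads. Intervals given below are exact 95% intervals of the ratio of 2 counts. They cover counting error only, since 1 library per genotype shows no spread between cultures. They also treat each read as an independent molecule, and are too narrow where reads are PCR copies of the same molecule. For regions without DKO reads, "at least" gives the ratio at the floor of 3 counts, which leaves out the counting error of the WT reads. The limit in brackets after it is the lower end of the exact interval, and it is smaller.

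**Figure D1:**
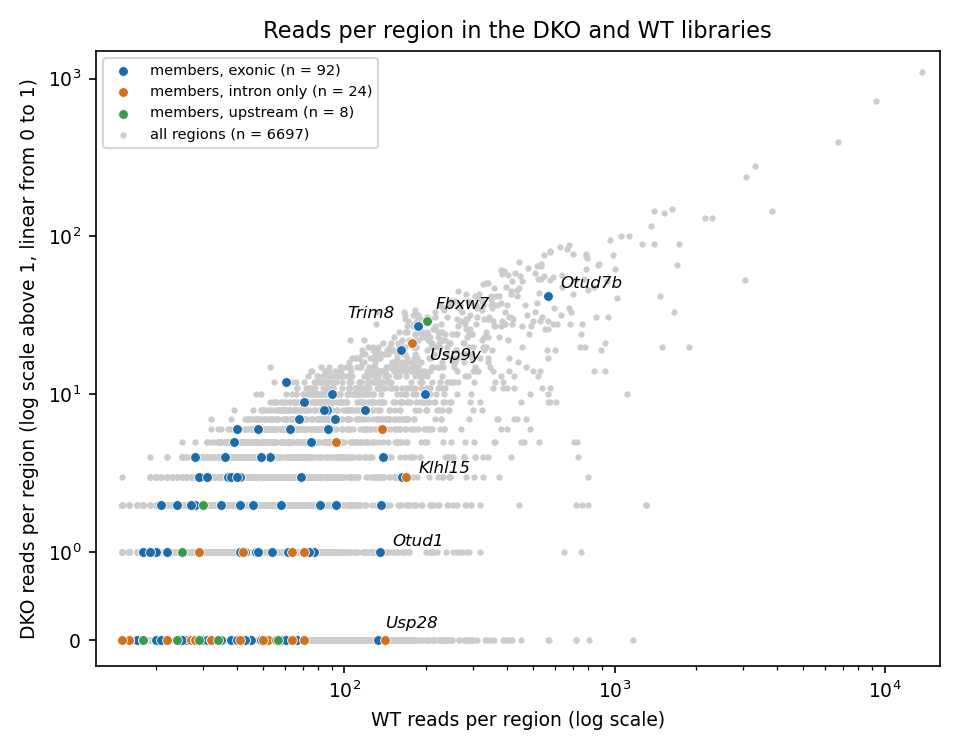
DKO reads (vertical axis, linear from 0 to 1 and logarithmic above) against WT reads (horizontal axis, logarithmic) of each region, with the 124 members coloured by annotation over all 6697 regions in grey. The members lie within the cloud of all regions, from Otud7b with 42 DKO reads against 568 WT reads to Usp28 with 0 against 141.

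Most member regions were exonic. Of the 124, 92 (74.2%) overlapped a coding exon or UTR, against 55.7% of all regions. Of all regions, 20.3% have no gene and could not be members, and 4.72% lie in non-coding transcripts, where no member lies. Those left were 3732 exonic, 1097 intronic and 194 upstream regions, so the 55.7% is not a like comparison. Of the rest, 24 member regions (19.4%) lay in introns only and 8 (6.45%) upstream of the gene. Within the same annotation the shares without DKO reads lay closer together: 34.8% of exonic members against 36.1% of all exonic regions, 66.7% of intronic members against 70.9%, and 62.5% of upstream members against 63.9%. The 40 members inside coding exons had no DKO reads in 25% of cases, against 29.4% of all such regions. The 27 that also reached into an intron had none in 44.4%, against 42.9%. A coding exon together with 3'UTR, that is the stop codon's neighbourhood, was covered by 5 members (4.03%), against 4.61% of all regions, and 3'UTR without coding sequence by 10 (8.06%), against 9.24%. The shares of all regions again include those without a gene. Among exonic regions alone, these were 5 and 10 of 92 members, against 309 and 619 of 3732, so both were less frequent among the members. Whether they differ beyond chance was not tested.

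The share without DKO reads was lower at higher WT read number in both sets. At 15 to 24 WT reads it was 66.7% of 24 members, against 79.9% of all regions, and at 25 to 39 reads 53.1% of 32 against 62.4%. At 40 to 69 reads it was 43.6% of 39, against 45.4%, and at 70 or more reads 10.3% of 29, against 24%. The 3 member regions with 70 or more WT reads and no DKO reads were those of Usp28 (141 WT reads), Trim56 (133) and Ubr1 (71). Whether the lower share in deeply read members goes beyond chance was not tested.

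**Figure D2:**
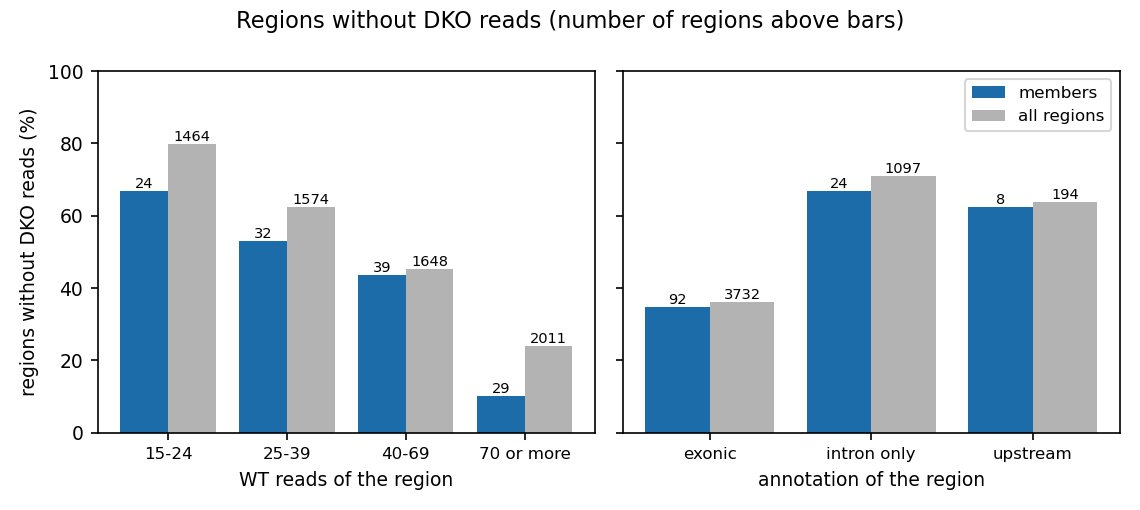
Percentage of regions without DKO reads (vertical axis) for members and all regions, by WT reads of the region on the left and by annotation on the right, with the number of regions above each bar. The bars of members and of all regions are close within each annotation (34.8% against 36.1% of exonic regions), and both are lower at 70 or more WT reads than at 15 to 24.

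Conjugating enzymes were listed with 8 genes of 1 region each. All 8 regions had 0 to 3 DKO reads, as did most regions (3382 with 0 and 1667 with 1 to 3, of 6697). The highest mean count belonged to Ube2g2, an E2 of the degradation of proteins from the endoplasmic reticulum, with 1 DKO read against 74 WT reads in its 3'UTR on chromosome 10 (77644765 to 77645081), 61.0-fold lower (10.6 to 2443). Ube2q1 had 0 DKO reads against 57 WT reads in an upstream region on chromosome 3 (89769957 to 89770216), at least 15.7-fold lower (limit 12.3). For Ube2e2, an intronic region of chromosome 14 (18698690 to 18698847) had 0 against 50, a difference of at least 13.7-fold (limit 10.8). In these 3 genes the DKO library held at most 1 read.

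Ube2r2, a relative of the E2 Cdc34 that works with cullin ligases, had 3 DKO reads against 40 WT reads at the end of its coding sequence, 11.0-fold lower (3.50 to 55.6). Ube2m, which conjugates not ubiquitin but the related protein NEDD8 to cullins, had 3 against 38, 10.4-fold lower (3.31 to 52.9). The others had 1 DKO read each, against 22 WT reads for Ube2l3, 19 for Ube2o and 18 for Ube2j2. All 8 passed 10-fold, where 52.5% of all regions do, and their median log2 of -3.53 lies above the -4.93 of all regions. The 2 measures order them differently: 6 of the 8 had between 1 and 3 DKO reads, and a region without DKO reads enters the log2 value at 0.5 reads but the fold at 3. Their median fold with zeros at the floor was 15.3, against 10.4 over all regions. Ube2l3, Ube2o and Ube2j2 passed 10-fold with 1 DKO read, at WT counts below the 37 that a region with 0 DKO reads needs. Whether the 8 of 8 goes with a larger difference than in all regions was not tested.

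Among the HECT ligases, Herc1, a giant ligase with RCC1-like domains, had 3 DKO reads against 164 WT reads in a coding region of chromosome 9 (66504707 to 66504886), 45.1-fold lower (15.2 to 221). Hectd3 had 0 against 24 over a coding exon and its intron, at least 6.60-fold lower (limit 4.96). Nedd4, the founding member of a family that marks membrane proteins for internalisation, had 2 against 46 on chromosome 9 (72662427 to 72662595), where the coding sequence begins, 19.0-fold lower (4.96 to 161). These 3 genes had 1 region each, and the intervals of Herc1 and Nedd4 overlap.

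The N-recognin Ubr1, which binds proteins by their first amino acid, had 0 DKO reads against 71 WT reads in its only region. That region is intronic, on chromosome 2 (120957789 to 120958072), and was at least 19.5-fold lower (limit 15.5).

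RING and TRIM proteins formed the widest class, with 37 regions in 27 genes. No DKO reads were found in 16 regions (43.2%), against 50.5% of all regions, and 22 (59.5%) were at least 10-fold lower, against 52.5%. The median log2 was -4.91, near that of all regions. The 19 Rnf regions had a median log2 of -4.55 with 7 at 0 DKO reads, and the 18 Trim regions -5.37 with 9 at 0. Both families spanned small and large differences.

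Trim8, a regulator of cytokine signalling, kept the most DKO reads of the class. It had 27 DKO reads against 187 WT reads on chromosome 19 (46502302 to 46502487), in coding exon and 5'UTR, 5.71-fold lower (3.80 to 8.90). Its second region, annotated upstream and also to a non-coding transcript, had 0 against 18. Trim56, a ligase of antiviral signalling, lay at the other end, with 2 DKO reads against 137 WT reads and 0 against 133 in neighbouring coding exon regions on chromosome 5 (137113172 to 137113601 and 137113708 to 137114543). Its summed counts of 2 against 270 were 111-fold lower (30.5 to 924). With its regions summed as well, Trim8 was 6.26-fold lower (4.18 to 9.73), and this interval lies below that of Trim56. The genes were set side by side because their values lay at the ends of the class. A gap between their intervals was therefore to be had from the choice, and is no test of a difference. The intervals also cover counting error only.

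Rnf43, which removes Wnt receptors from the cell surface, had 5 DKO reads against 93 WT reads in an intron, chromosome 11 (87683332 to 87683514), 15.3-fold lower (6.34 to 48.4). Rnf40, part of the ligase that marks histone H2B, had 8 against 86 and 1 against 41 in coding exons with adjoining intron, 11.6-fold lower over both (5.94 to 26.0). Rnf145, a ligase of the endoplasmic reticulum membrane, had 7 against 68 at the end of its coding sequence, 8.01-fold lower (3.68 to 20.7). Rnf220 had 0 against 52 in an intron, at least 14.3-fold lower (limit 11.2). The intervals of the 3 genes with DKO reads overlap.

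**Figure D3:**
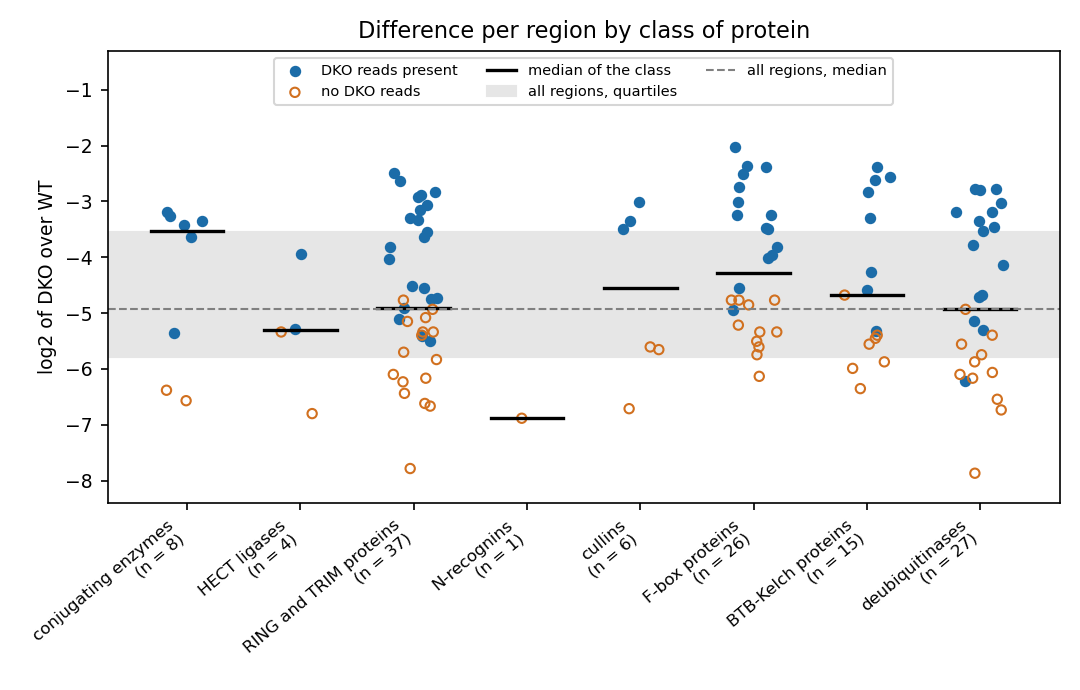
log2 of DKO over WT (vertical axis) of each member region by class of protein, with open circles for regions without DKO reads, a black line at each class median, and the quartiles (grey band) and median (dashed line) of all regions. The class medians run from -6.88 (1 N-recognin region) to -3.53 (8 conjugating enzyme regions), and those of the 37 RING and TRIM regions and the 27 deubiquitinase regions lie at the median of all regions.

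Cul7 was the only cullin listed. It is a scaffold that pairs with the F-box protein Fbxw8, and it had the most regions of any member, 6 along chromosome 17 (46651851 to 46663851), each on a coding exon with adjoining intron. In the order of distance from the start, the DKO library had 2, 5, 0, 1, 0 and 0 reads and the WT library 24, 75, 29, 18, 30 and 63. The 3 regions with DKO reads lay 1612, 2785 and 4166 bases from the start, while the last, at 13392 bases, had 0 against 63 (log2 -6.71). Summed, 8 DKO reads stood against 239 WT reads, 24.6-fold lower (12.3 to 57.7).

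F-box proteins had 26 regions in 19 genes. No DKO reads were found in 11 (42.3%), against 50.5% of all regions, while 10 (38.5%) were at least 10-fold lower, against 52.5% of all regions. They had a median of 28.5 WT reads, against 43 over all regions, and 8 of the 26 had more than 3 DKO reads, against 1648 of all 6697. Whether the number of WT reads bears on the share at 10-fold was not tested. The median log2 of the F-box regions was -4.28, against -4.93 over all regions.

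Fbxw7, the receptor of the ligase that recognises phosphorylated Myc, cyclin E and Notch, had the second-highest DKO count of the members, with 29 DKO reads against 203 WT reads in a region on chromosome 3 (84815005 to 84815360). The authors annotate it as upstream, at -395 bases from the start, and the stretch printed above is its end. It was 5.77-fold lower (3.90 to 8.84). Usp28, the deubiquitinase that acts against Fbxw7 on Myc in human cells, had 0 DKO reads against 141 WT reads. Its region is intronic, on chromosome 9 (49027520 to 49027681), and was at least 38.8-fold lower (limit 31.1). Neither region lies on a coding exon.

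Fbxo46 had 10 DKO reads against 198 WT reads and, in another coding exon region further from the start, 12 against 61. The second is the smallest difference of any member region, 4.19-fold, with a log2 of -2.02 against -3.96 for the first. Fbxo42 had 0 against 16, 6 against 40 and 2 against 93 in its intron, exon border and coding exon, so the region with the most WT reads was not the one with the most DKO reads. Fbxl18 was even, with 6 against 87 and 6 against 63 in coding exons (10.3-fold lower over both, 5.73 to 20.4). Fbxo21 had 2, 2, 0 and 0 DKO reads against 28, 28, 24 and 24 WT reads from start to 3'UTR, and the ratio of the regions with DKO reads, 11.5-fold, exceeds the bound of 6.60-fold of the others. Fbxl17, which checks the pairing of BTB domains, had 1 against 42 in an intron, 34.6-fold lower (5.89 to 1400).

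BTB-Kelch proteins, most of which bring targets to the cullin Cul3, had 15 regions in 12 genes, of which 7 (46.7%) had no DKO reads, against 50.5% of all regions, and 6 (40%) were at least 10-fold lower, against 52.5%. Klhl15 stood out by read number, with 3 DKO reads against 169 WT reads in an intron on chromosome X (94241620 to 94241912), 46.5-fold lower (15.6 to 228). Klhl21, an adaptor of cell division in human cells, had 0 against 49 near its start and 2 against 58 at its stop codon. Klhl9, which works with Klhl13 in human cells, had 3 against 41 in its coding exon, 11.3-fold lower (3.60 to 56.9). Klhl13 had 0 against 15 in an intron, the lowest WT count of the members and also of all regions. Kbtbd11 had 1 against 43 and 0 against 35 in its coding exon. Klhl26 and Kbtbd4 kept more, with 6 against 48 (6.60-fold lower, 2.82 to 18.9) and 5 against 39 (6.43-fold, 2.53 to 20.9). The interval of Klhl15 overlaps those of Klhl26 and Kbtbd4, though narrowly.

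Deubiquitinases had 27 regions in 22 genes, 21 regions of Usp and 6 of Otud genes. No DKO reads were found in 11 (40.7%), against 50.5% of all regions, and 18 (66.7%) were at least 10-fold lower, against 52.5%. Whether these shares differ beyond chance was not tested. The median log2 was -4.93, equal to that of all regions to 2 decimals. The class held the member region with the most reads in both libraries and that with the lowest log2 value, Usp28 at -7.87.

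Otud7b, which cuts lysine-11 linked chains, had 42 DKO reads against 568 WT reads in its coding exon on chromosome 3 (96155326 to 96155858), beside 4 against 139 and 1 against 47 in exonic regions before it. The deepest region was 11.2-fold lower and all 3 summed were 13.2-fold lower (9.85 to 18.2). Otud1, picked after its values were seen, had 1 against 135 within its coding sequence on chromosome 2 (19658373 to 19658866), 111-fold lower (19.6 to 4430), the largest ratio of any member region with DKO reads. That ratio rests on 1 DKO read.

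Usp10, a partner of the stress granule protein G3bp1, had 19 DKO reads against 162 WT reads in coding sequence on chromosome 8 (119941504 to 119941752) and 4 against 49 in its 3'UTR, 7.57-fold lower over both (4.91 to 12.2). Usp9y, the Y-linked relative of Usp9x, had 21 against 178 in an intron (1428741 to 1429042 on chromosome Y), 6.99-fold lower. Usp9x, on the X, had 2 against 27 in a coding exon, 11.1-fold lower. The copies are near-identical in parts, and how reads that match both were counted is not given in the sources used here. The same holds for Rnf113a2, a retrocopy, with 4 against 53.

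Usp46 had 6 DKO reads against 138 WT reads in an intronic region of chromosome 5 (74021322 to 74021628), 19.0-fold lower (8.50 to 52.6). Usp39, a splicing factor that has lost the protease activity, had 0 against 64, and Usp48 had 0 against 56. Both regions were intronic, at least 17.6-fold and 15.4-fold lower (limits 13.9 and 12.1). The 24 intronic members of all classes had 39 DKO reads against 1459 WT reads, and Usp9y alone gave 21 and 178 of these.

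Of the 94 genes, 19 (20.2%) had several regions, against 30.3% of all genes, and 12 of these 19 had regions both with and without DKO reads. The like share of all genes with several regions was not counted, so the 12 cannot be called a trait of the members. In Trim41, a RING ligase, the 5'UTR held 0 DKO reads against 61 WT reads nearest the start and 9 against 71 in the next region (48816723 to 48816973 on chromosome 11), while the coding exons had 0 against 59 and 0 against 43. Its log2 values thus ran from -6.66 to -2.63, the widest range of the members. The summed counts, 9 against 234, gave 21.4-fold (11.1 to 47.5), where the region with 9 reads alone gave 6.51-fold. In Trim26, a coding exon had 10 against 90 and the adjoining 3'UTR region 1 against 62. The counts of a single region therefore describe that region and not the gene.

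**Figure D4:**
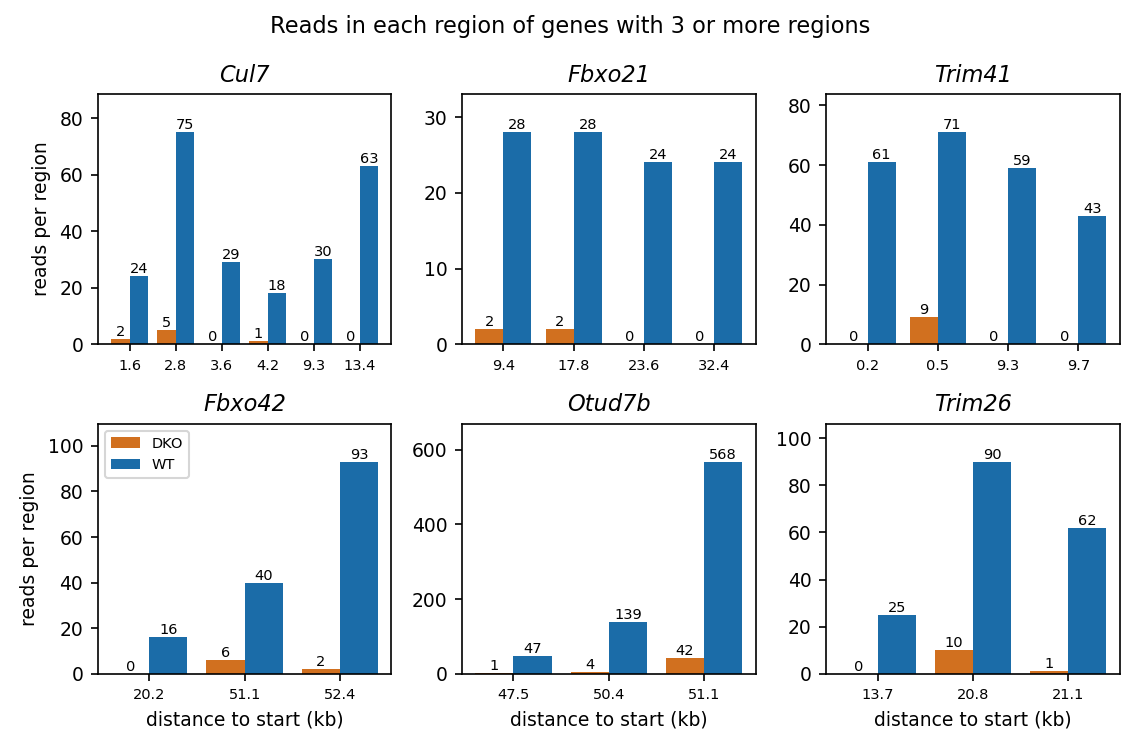
DKO and WT reads (vertical axis, linear from 0) in each region of the 6 members with 3 or more regions, in order of distance to the transcription start in kilobases. In Trim41 all 9 DKO reads fall in 1 of 4 regions, and in Cul7 the 3 regions without DKO reads include the last, with 63 WT reads.

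Some member regions are also listed under another gene, 19 of the 124. In 2 of them the other gene's exon is covered: the region given to Fbxo24 as upstream (1 DKO read against 25 WT reads) lies in coding exon and 5'UTR of Lrch4, and that given to Rnf167 as upstream (0 against 34) in coding exon and 3'UTR of Slc25a11. Trim32 (3 against 37) and Rnf113a2 lie within introns of Astn2 and Ccdc176. Which of the genes the reads came from was not tested. No member region overlapped a microRNA hairpin of RefSeq.

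By NCBI gene identifier, 96 of 406 protein-coding genes of the pattern (23.6%) had a listed region, against 3450 of 21896 protein-coding genes (15.8%); 2 of the 96 (Klhl42 and Kbtbd6) stand in the table under older symbols and are not among the 94. The share ran from 34.4% of 64 deubiquitinases and 30.4% of 46 BTB-Kelch genes to 17.9% of 151 RING and TRIM genes and 12.5% of 8 cullins. Among genes whose span is below the median of 17149 bases it was 23.6% of 144, against 10.3% of all such genes, and among longer genes 23.7% of 262, against 21.3%. Whether these shares differ beyond chance was not tested, and how regions were chosen for the table is not given in the sources used here. Of 16 genes looked for because of their known roles, 10 were not listed, among them Cul1, Cul3, Usp7, Usp22, Ube3a and Rnf2. Most genes are not listed, since only 15.8% of all protein-coding genes and 23.6% of those of the pattern are.

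**Figure D5:**
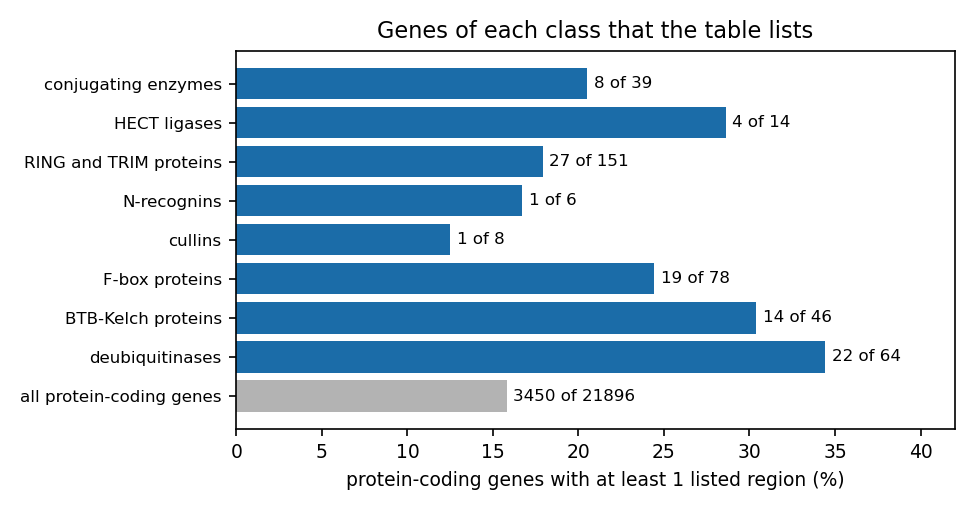
Percentage of RefSeq protein-coding genes with at least 1 listed region (horizontal axis) in each class and among all protein-coding genes (grey), with the counts beside the bars. Deubiquitinases have the highest share (22 of 64) and cullins the lowest (1 of 8), against 3450 of 21896 overall.

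Other genes of the ubiquitin system, outside the pattern of symbols, were taken from a list of ligases, adaptors, deubiquitinases and regulators. Of 123 genes looked for, 36 (29.3%) were listed, against 15.8% of all protein-coding genes. With 1 region per gene, 15 of the 36 (41.7%) had no DKO reads, against 46.2% of all listed genes. At least 10-fold lower were 20 (55.6%), the same share as over all listed genes (55.6%). The median log2 was -4.50, against -4.85 over all listed genes. Those with the highest mean counts, picked after their values were seen, were Park2, the ligase parkin, with 33 DKO reads against 689 WT reads in an intron (17.2-fold lower, 12.1 to 25.2), and Spop, a Cul3 adaptor, with 16 against 252 (13.0-fold, 7.84 to 23.1). They were followed by Fzr1, an activator of the anaphase-promoting complex, with 13 against 190 (12.1-fold, 6.88 to 23.1), and Mdm2, the ligase of p53, with 22 against 163 (6.11-fold, 3.90 to 10.0). March6 stands in the table under a symbol written as a date (2 against 18).

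Of 8 markers of embryonic stem cells, 3 (37.5%) had a listed region, against 15.8% of all protein-coding genes. They were Pou5f1 in a coding exon (6 DKO reads against 55 WT reads), Esrrb in an intron (7 against 146) and Utf1 upstream (1 against 46). Nanog, Sox2, Zfp42, Klf4 and Dppa4 had none. The list holds only regions with fewer DKO than WT reads, so it cannot check the labelled cell type. A marker without a listed region may still be expressed.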

How the data were processed

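m6A-captured mRNA and input mRNA were sequenced from DKO and WT cells, 4 samples with 1 library per group. The submitters' processing notes name Bowtie2, DESeq and mm9 but no versions or steps. How regions were called and filtered, and whether counts were normalized, is not given in the sources used here. The authors deposited 1 table of 7562 rows with a count per region for each genotype. The deposited enrichment factor is a ratio, the WT count over the DKO count times a constant of 0.825, blank at 0 DKO reads. The deposited read density is a signal, the WT count per base of the region. Library totals are not in the table, so depth is unknown.

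All 124 member regions lay within 5000 bases of their gene in the RefSeq table of GRCm38.p6, and coordinates are printed as deposited, although the notes name mm9. Folds are WT over DKO after the constant. log2 values are DKO over WT, with a pseudocount of 0.5. For folds, DKO counts of 0 were replaced by 3 counts (per library). Ratios have exact Clopper-Pearson 95% intervals. With 1 library per group no test was made, and every value compares these libraries. The arithmetic was tested on simulated data (Python 3.11.15, scipy 1.17.1).

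The members, lists and rule were chosen with earlier results of these data known. The rule named the up to 5 genes of highest mean count in each class, the 8 genes at each end of the log2 value at or above the median mean count, genes with 4 or more regions, and 16 genes by role, and other members are named as examples after their values were seen. Alternatives were other pseudocounts, floors, scalings and subsets of regions. Of the genes that the pattern takes, 1 is left out of all counts, and not every gene that the rule names is reported here.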

Additional observations from a re-analysis of the deposited data

How the results depend on the processing

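The median log2 of the member regions (-4.77) was -5.26 with a pseudocount of 0.25, -3.42 with 2 and -5.04 without the authors' constant, where all regions gave -5.74, -3.42 and -5.21. It was -4.71 both for regions with a mean count no lower than the median of all and for 1 region per gene, -4.53 in exonic regions and -4.76 without upstream ones; all regions gave -4.44 among the more deeply read and -4.27 among the exonic, above the members there and below them in the main values. The value with 1 region per gene (-4.71) was -5.00 and -3.42 with the other pseudocounts, -4.99 without the constant and -4.61 with the regions of a gene summed. The number of regions without DKO reads (53) was 14 among the more deeply read regions and 32 in exonic regions, and the number at least 10-fold lower (71) was 42 among the more deeply read; fewer regions were counted there. It was 84 without the constant and 64 with the upper Poisson limit of a count of 0 (3.69) as the floor. Leaving out regions listed under another gene was chosen after seeing the data, and left 45 and 59. Many alternatives for named genes could not leave the counting interval of the main value. With 1 region, the sum and the mean equal that value, and with 0 DKO reads the interval has no upper end. Of the 200 alternatives, 194 stayed within the interval. The other 6 came from averaging or summing the regions of a gene: Trim41 moved from -2.63 to -5.52 and -4.35, Trim26 from -2.83 to -4.44, Trim8 from -2.49 to -3.71, Otud7b from -3.46 to -4.28 and Fbxo46 from -3.96 to -2.99. No paired analysis was possible because each group has 1 library, and for the same reason no library could be left out. Below 37 WT reads, a region without DKO reads cannot reach 10-fold at the floor used.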
